A study of Mus musculus with 2 samples.

Results

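T cells, natural killer (NK) cells and innate lymphocytes were a minor part of the CD45+ cells of the dorsal root ganglion (DRG). They were chosen by their raw counts of unique molecular identifiers (UMIs, each standing for 1 captured RNA molecule). A cell entered the gate with at least 3 UMIs of Cd3d, Cd3e, Cd3g, Trbc1, Trbc2, Ncr1 and Klrb1c together, less than 0.3% of its UMIs from C1qa, C1qb and C1qc, less than 2% from S100a8 and S100a9, and at most 1 UMI of Cd79a. These were 125 of 2668 cells of male mice, or 4.69% (exact Clopper-Pearson 95% interval 3.91 to 5.56%). All mice were naive wild type (WT) BALB/cAnNRj animals of 7 weeks or older. Pooled cervical, thoracic and lumbar DRGs of 3 male and 3 female mice were digested with collagenase and dispase, freed of myelin, and sorted for CD45, the common leukocyte surface protein. A deposited list gives 6 hashtag antibodies, 3 with male and 3 with female BALB/c, and each hashtag was taken as 1 mouse. The published methods name 3 mice and 3 antibodies only, so every n of 3 rests on that reading. All cells ran in 1 lane of the 3′ v3 droplet assay, so that the gene and hashtag libraries hold the same cells. The authors' filtered matrix holds cells with a male hashtag, and cells with a female hashtag were recovered from the larger matrix and put through the same gate, which took 88 of 1073 cells.

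T cells recognize antigen through a receptor of alpha and beta or of gamma and delta chains, which signals through the CD3 chains. NK cells and innate lymphoid cells lack that receptor. NK cells use activating and inhibitory surface receptors and kill with granzymes and perforin, and group 2 innate lymphoid cells respond to the alarmin IL-33 and release type 2 cytokines. In most tissues part of these cells is resident and does not recirculate.

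Bases before the transcription start are shown for genes that mark the kinds of cells described below. Of 23 genes looked up, 18 had a promoter in the RefSeq table (GRCm38.p6). The 250 bases before each start were searched on both strands for the letters of 4 textbook motifs. RUNX factors were searched as TGTGGT. The second motif, that of GATA factors, was searched by the letters AGATAA. For ETS factors the letters were GGAAGT, and for T-box factors the search took GGTGTG. Matches of different motifs may overlap. Capitals mark every match to any of the 4 or to its reverse complement. The sequences run 5′ to 3′ on the strand of the gene and end at the base before the start, and positions count back from the start.
Ncr1: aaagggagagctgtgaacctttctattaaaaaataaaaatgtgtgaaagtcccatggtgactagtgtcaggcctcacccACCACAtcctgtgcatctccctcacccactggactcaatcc
Gzma: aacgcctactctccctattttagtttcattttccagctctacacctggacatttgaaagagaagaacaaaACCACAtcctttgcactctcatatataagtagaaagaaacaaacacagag
Nkg7: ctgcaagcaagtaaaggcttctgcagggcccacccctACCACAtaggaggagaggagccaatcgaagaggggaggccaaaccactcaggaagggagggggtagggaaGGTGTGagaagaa
Cxcr6: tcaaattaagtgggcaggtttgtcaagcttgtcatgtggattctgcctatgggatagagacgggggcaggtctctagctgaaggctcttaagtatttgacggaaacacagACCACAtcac
Il1rl1: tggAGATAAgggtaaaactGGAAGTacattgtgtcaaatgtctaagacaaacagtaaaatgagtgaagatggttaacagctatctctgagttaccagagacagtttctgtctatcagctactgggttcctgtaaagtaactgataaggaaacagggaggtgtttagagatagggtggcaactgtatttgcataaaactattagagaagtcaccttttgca
Cd3g: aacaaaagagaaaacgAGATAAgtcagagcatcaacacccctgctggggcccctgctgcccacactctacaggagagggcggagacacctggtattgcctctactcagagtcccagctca
They cover chr7:4337595-4337714 (Ncr1, plus strand, the first of its listed starts), chr13:113100982-113101101 (Gzma, minus), chr7:43437018-43437137 (Nkg7, plus), chr9:123806357-123806476 (Cxcr6, plus), chr1:40429350-40429569 (Il1rl1, plus, the upstream start) and chr9:44980432-44980551 (Cd3g, minus). Of 8 NK genes looked up, 7 had a promoter, and 5 of these held the RUNX letters (Ncr1, Klrb1c, Xcl1, Gzma and Nkg7), which are found in 14% of 32851 promoters of the same length. The GATA letters were in 0 of these 7 and in 9.99% of all promoters. An Il1rl1 group of 7 genes was looked up too, namely Il1rl1, Gata3, Il7r, Cxcr6, Areg, Il5 and Csf2. Of these, 2 held the GATA letters (Il1rl1 and Csf2) and 2 the RUNX letters (Il1rl1 and Cxcr6). A gene was counted when any of its listed starts had the letters, and for Il1rl1 the RUNX letters lie before the downstream start, which is not shown. Among Cd3d, Cd3e, Cd3g and Cd247, 0 held the RUNX letters, 1 the GATA letters (Cd3g) and 3 the ETS letters. The latter are in 19.7% of all promoters. The ETS letters were also in 3 of the 7 NK promoters and in 3 of the 7 genes of the Il1rl1 group. The T-box letters were in 16.3% of all promoters and in 2 of the 7 NK promoters. They were also in 1 of the 7 genes of the Il1rl1 group and in 1 of the 4 CD3 chain genes. The counts are of genes, over any listed start, and the percentages are of single promoters. These matches are descriptions of letters in the reference, and the genes were picked with their counts known.

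The gate took 38 of 481 cells in male mouse 1 (7.90%), 31 of 772 in male mouse 2 (4.02%) and 56 of 1415 in male mouse 3 (3.96%). The mean was 5.29% ± 2.26 (SD, n = 3). In female mice it took 31 of 382 cells (8.12%), 24 of 313 (7.67%) and 33 of 378 (8.73%), with a mean of 8.17% ± 0.533 (SD, n = 3). Male mouse 1 lay within the female range and the other 2 males below it. The difference of means was -2.88 percentage points (male minus female), which 3 against 3 mice did not separate (2-sided exact permutation test p = 0.2, 0.333 after Benjamini-Hochberg adjustment over 5 shares, with 0.1 the smallest p that this design allows). Without cells that had a UMI of Dntt, Rag1 or Rag2, which are described below, all males lay below all females, with a difference of -3.52 percentage points (exact permutation p = 0.1). Without 2 cells of over 20000 UMIs it was -3.01, again with no overlap (exact permutation p = 0.1). Shares are of sorted cells, so more of one cell type and fewer of the others cannot be told apart. Gated cells had a median of 4609 UMIs in male and 4603 in female mice. Macrophages of the male mice, taken by the C1q limit, had a median of 8596 UMIs, and B cells, taken by at least 2 Cd79a UMIs, had 3412.5.

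**Figure D1:**
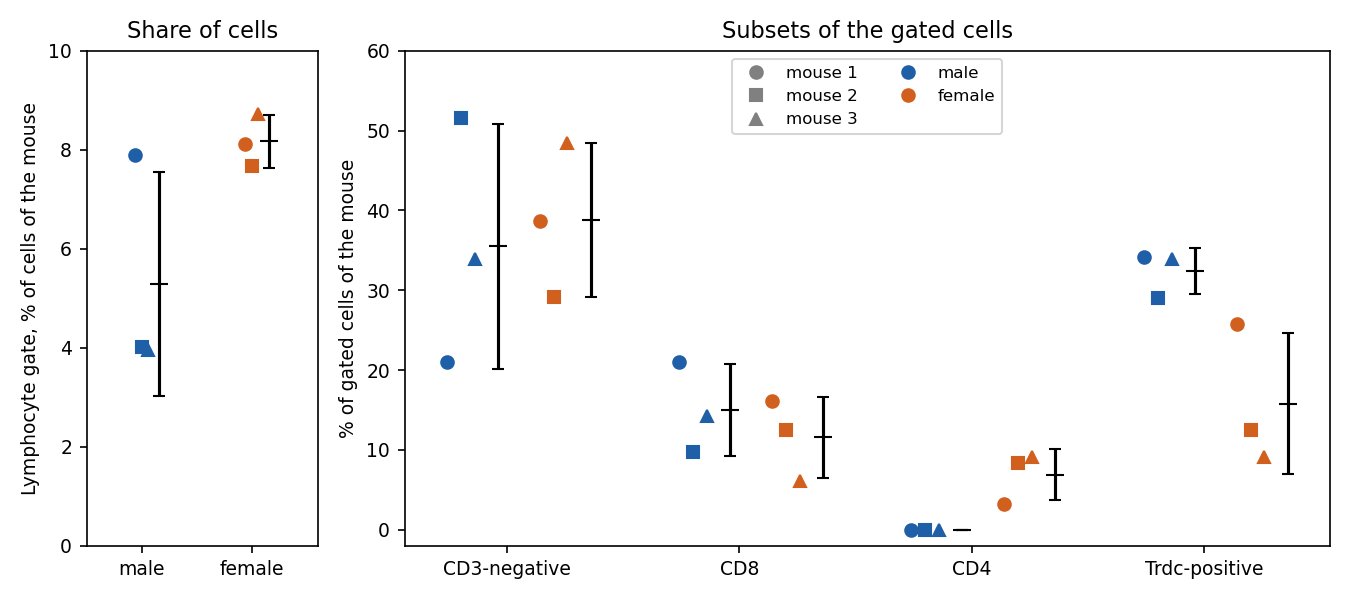
Left, gated cells as a percentage of each mouse's cells. Right, CD3-negative, CD8, CD4 and Trdc-positive cells as a percentage of each mouse's gated cells. Symbols are mice, and bars are the mean and SD of 3 mice. The 0 CD4 cells of all 3 males and the higher Trdc-positive shares of the males stand out, and the sexes overlap in the CD3-negative and CD8 shares.

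The 7 genes given for these cells were in 14.4% to 85.6% of gated male cells and in at most 3.38% of other male cells. Of the 7, Cd3e, Cd3g and Trbc2 are also genes of the gate. Trbc2, a beta chain constant gene at chr6:41546730-41548352 (mm10), had a UMI in 85.6% of gated male cells and in 0.551% of all other cells. Cd3g, a CD3 chain, had one in 64.0% against 0.669%, Cd3e in 48.8% against 3.38%, and Cxcr6, a chemokine receptor of resident lymphocytes, in 54.4% against 0.747%. Xcl1, a chemokine that attracts type 1 dendritic cells, was in 36.8% and Trdc, the delta chain constant gene, in 32.8%. Gzma, a granzyme, was in 14.4% only, although it was the most abundant of the genes outside the gate with the widest ratio to other cells (980.1 CPM, UMIs per 1000000 UMIs of the summed cells, against 0.220). The others of the 10 widest ratios were Xcl1, Il2rb, Trac, Tcf7, Klrc1, Sh2d1a, Ctsw, Cd247 and Klrc2. Klrc2, an NK receptor, had 81 UMIs in gated male cells and 0 in the other 2543. Trbc1 and Trbc2 are near-identical copies, so the split of reads between them is uncertain. These genes follow from how the cells were chosen and carry no test.

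Of 373 male cells with at least 3 UMIs of the 7 genes, 229 failed the limit on S100a8 and S100a9, 22 that on C1q and 1 that on Cd79a, and 4 cells are counted under more than 1 limit. The 229 cells had their UMIs from Cd3d. It gave 1263 UMIs in 228 of them, whereas Cd3e gave 4, Cd3g 7 and Ncr1 0. In all male cells over the S100a8 and S100a9 limit, Cd3d was at 264 CPM, 297 CPM and 312 CPM in mouse 1, 2 and 3, and in gated cells it was at 586 CPM, 214 CPM and 362 CPM. Cd3d alone therefore did not part gated cells from the S100a8 and S100a9 cells, and Cd3e did, at 480 CPM, 385 CPM and 492 CPM in gated cells against 0, 0 and 1.32. Female cells over the limit had 283 CPM, 364 CPM and 302 CPM of Cd3d. In macrophages Cd3d was in 0.952% of cells. Cd3g and Cd3d lie head to head on chromosome 9 with 1355 bases between their starts, at chr9:44969572-44980431 on the minus strand and chr9:44981786-44987339 on the plus strand.

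**Figure D2:**
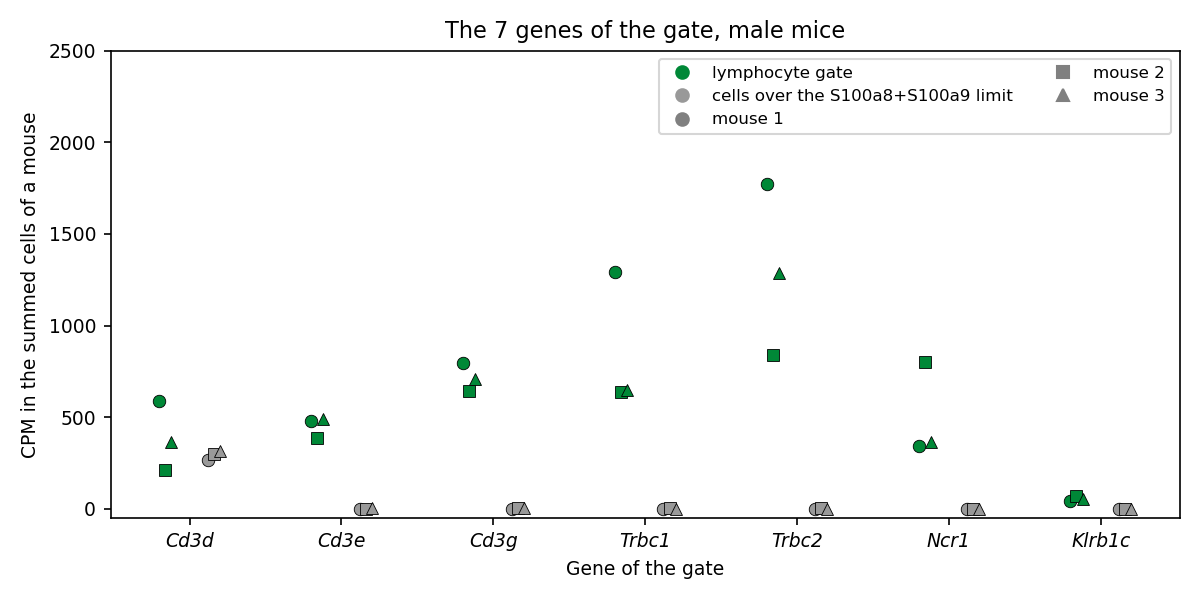
CPM of the 7 genes of the gate in gated cells (green) and in cells over the S100a8 and S100a9 limit (grey), 1 symbol for each of 3 male mice. Cd3d is the only one of the 7 above 200 CPM in both kinds of cells, and the grey points of the other 6 lie near 0.

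At the threshold, 4 gated male cells had a sum of exactly 3 UMIs and 4 cells that met the other limits had a sum of 2. Of the former, 4 had Il7r, 4 had Cxcr6 and 3 had Gata3. Of the latter, 4 had Il7r, 3 had Cxcr6 and 4 had Gata3. The median sum of the gated cells was 18 UMIs. In 18 male gated cells, and 23 female ones, Trbc1 and Trbc2 alone met the sum, with 0 UMIs of the CD3 genes, Ncr1 and Klrb1c.

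CD3-negative cells, which had 0 UMIs of Cd3d, Cd3e and Cd3g, made 43 of 125 gated male cells (34.4%, exact interval 26.1 to 43.4%). They were 8 of 38 cells in male mouse 1, 16 of 31 in mouse 2 and 19 of 56 in mouse 3, with a mean of 35.5% ± 15.3 (SD, n = 3). In female mice they were 12 of 31, 7 of 24 and 16 of 33. A count of 0 at this depth does not show that a cell lacks the protein. After thinning each gated cell to 1000 UMIs, with 0 cells left out, the mean was 44.4% in male and 51.2% in female mice.

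The CD3-negative cells divided by Ncr1, the NK receptor NKp46, and Il1rl1, the receptor of IL-33. In male mice 25 cells had Ncr1 only, 15 had Il1rl1 only, 0 had both and 3 had neither. In female mice 11 had Ncr1 only, 20 had Il1rl1 only, 1 had both and 3 had neither. The split used below, a UMI of Ncr1 or Klrb1c against 0 of both, was chosen after these values were seen, and Ncr1 and Klrb1c are also genes of the gate. Of the male cells, 25 were on the Ncr1 side (6, 9 and 10 in mouse 1, 2 and 3) and 18 on the other (2, 7 and 9). Of the female cells, 12 were on the Ncr1 side (5, 2 and 5) and 23 on the other (7, 5 and 11).

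On the Ncr1 side, the cells carried the genes of cytotoxic lymphocytes. Nkg7, a granule protein, was in 25 of 25 male cells, Xcl1 in 23 and Ccl5, a T and NK cell chemokine, in 22. The IL-2 and IL-15 receptor chain Il2rb was in 21, the NK receptor chain Klrd1 in 20, perforin (Prf1) in 14, and the T-box factors Tbx21 and Eomes in 13 and 12. Gzma was in 7 of the 25, and in 6 of the 12 female cells. The adaptors Fcer1g and Tyrobp, which carry signals of NK receptors, were in 100% and 92% of the male cells, against 21.2% and 23.1% of B cells. Myeloid cells carry adaptors too. The list of adaptors and kinases, led by Tyrobp, summed to 5228 CPM in male macrophages and 5399 CPM in neutrophils. It summed to 4195 CPM in CD3-negative cells and 435 CPM in B cells. Cd28, a costimulatory receptor, was in 72% of the male cells on the Ncr1 side and Trac in 0%. Of the female cells on this side, 25% had a Trac UMI. Trdc was in 9 male cells.

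On the other side, 0 of 18 male cells had Xcl1, Gzma, Prf1, Ccl5, Klrd1, Eomes or Tbx21. These cells passed the gate by Trbc1 and Trbc2 alone, with Trbc2 in 16 and Trbc1 in 14 of the 18 male cells and in 22 and 17 of the 23 female cells. Il7r, the IL-7 receptor, was in 17 of 18, Gata3, the transcription factor of type 2 lymphocytes, in 16, Cxcr6 in 16 and Il1rl1 in 15. Rora, a nuclear receptor needed for group 2 innate lymphoid cells, was in 12, Il2ra in 10, and the growth factor genes Areg and Csf2 in 7 each. Some of these genes were on the Ncr1 side as well, where Gata3 was in 14 of 25 male cells, Cxcr6 in 11, Rora in 10 and Il7r in 7, and in 5, 7, 7 and 4 of 12 female cells. B cells, at a lower median depth, had Gata3 and Rora in 0% and Il7r in 32.5%. In female mice 23 of 23 cells on this side had Gata3, 23 had Il7r, 22 had Cxcr6, 20 had Il1rl1, 17 had Csf2 and 15 had Areg. Il5, a type 2 cytokine, was in 6 of the 23 female cells and in 0 of 18 male cells. That difference was not tested. Tcrg-C1 and Tcrg-C4, gamma chain constant genes, were in 8 and 9 of the 18 male cells, while Trdc was in 0.

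**Figure D3:**
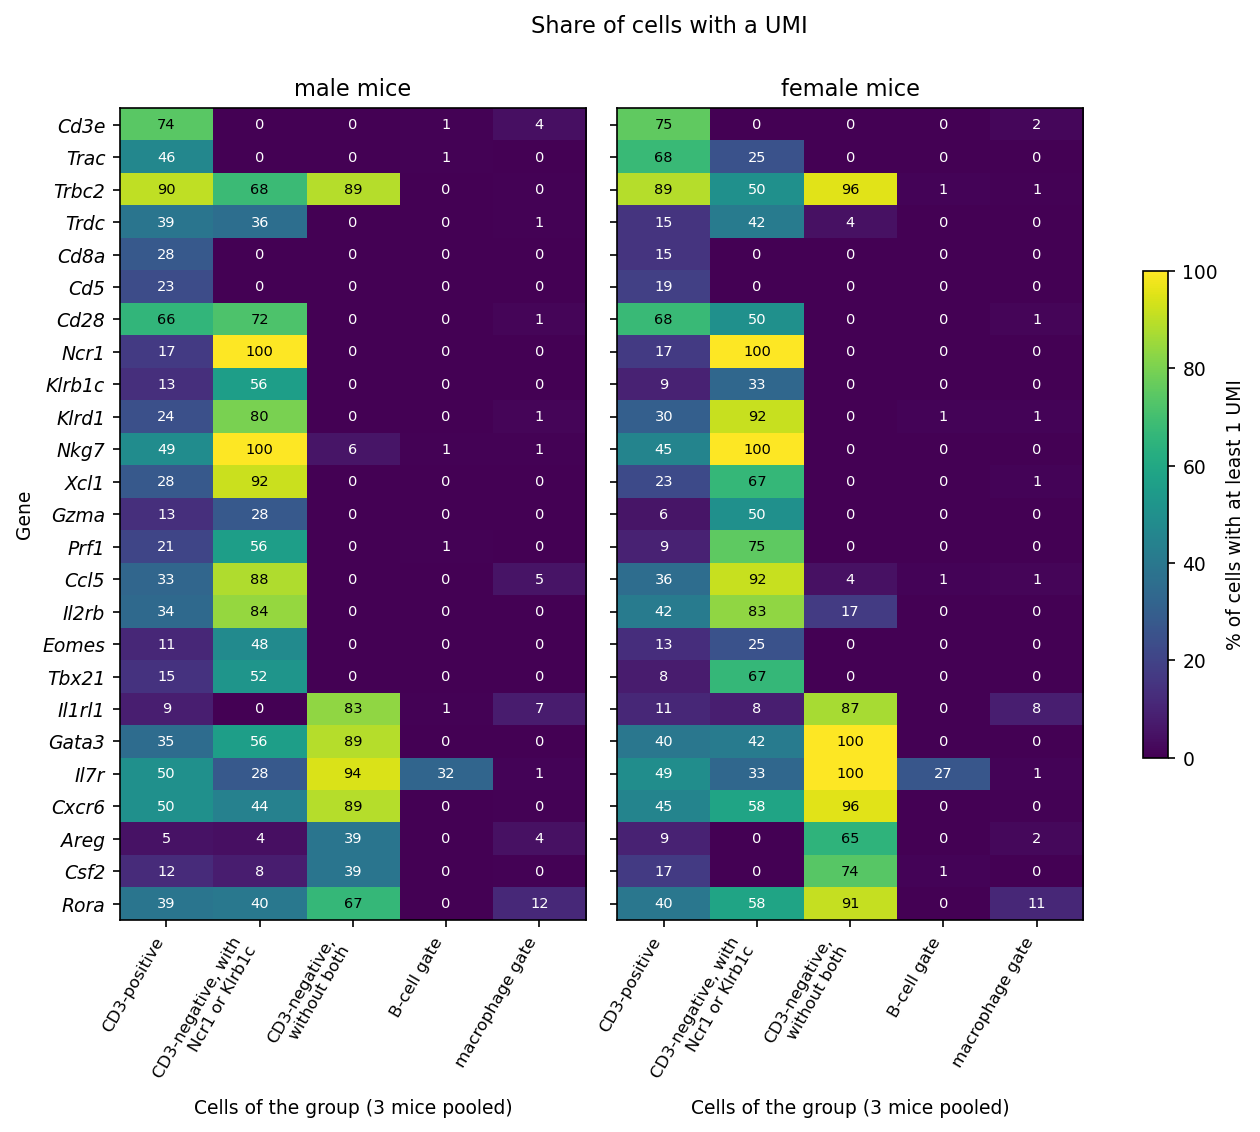
Percentage of cells with at least 1 UMI of each gene, in male (left) and female (right) mice pooled, printed in each tile. Columns are CD3-positive cells (82 male, 53 female), CD3-negative cells with Ncr1 or Klrb1c (25 and 12), CD3-negative cells without both (18 and 23), and B cells and macrophages for comparison. Genes from Klrd1 to Tbx21 are in 25% to 100% of cells in the second column and in at most 17.4% in the third, and Il1rl1, Areg and Csf2 are in at most 8.33% in the second and in at least 38.9% in the third, in both sexes.

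CPM per mouse had more spread. Ncr1 in CD3-negative cells was at 1562 CPM, 1082 CPM and 762 CPM in male mouse 1, 2 and 3, and in CD3-positive cells at 111 CPM, 563 CPM and 179 CPM. Il1rl1 was at 112 CPM, 174 CPM and 196 CPM in CD3-negative and at 10.6 CPM, 0 and 29.9 CPM in CD3-positive cells. The groups did not overlap for either gene in male mice. For Ncr1 this follows from the gate, since a cell without CD3 UMIs could enter only by Ncr1, Klrb1c, Trbc1 or Trbc2. In female mice Il1rl1 was at 469 CPM, 195 CPM and 214 CPM against 52.0 CPM, 80.8 CPM and 54.3 CPM. Csf2, the gene of GM-CSF, was at 0, 401 CPM and 152 CPM in CD3-negative cells of the males and at 1065 CPM, 1699 CPM and 1255 CPM in those of the females. The sexes do not overlap in that gene, and the difference within CD3-negative cells was not tested. In pooled cells without Ncr1 or Klrb1c, Csf2 was at 530 CPM in male and 1962 CPM in female mice. With Ncr1 or Klrb1c it was at 31.5 CPM and 0. Cells without both were 18 of 43 CD3-negative cells in male mice, with 2 in male mouse 1, and 23 of 35 in female mice.

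Over all genes with at least 30 UMIs in gated male cells and outside the gate, 17.2% of 3209 were higher in CD3-negative than in CD3-positive cells in 3 of 3 male mice, and 18.2% were lower in 3 of 3. The median log2 ratio was 0.00. The 10 widest ratios upward were Il1rl1 (log2 3.37), Nrgn (3.05), Hs3st1 (3.03), Plscr1 (2.92), Ccl4 (2.71), Hes1 (2.58), Casp1 (2.50), Gem (2.40), Gm20186 (2.33) and Klrb1f (2.32). Hes1 is a target of Notch signals, Casp1 the inflammatory caspase, and Hs3st1 an enzyme of heparan sulfate. Of these 10, Il1rl1, Nrgn, Hs3st1, Plscr1, Casp1 and Klrb1f were higher in 3 of 3 female mice as well, and Ccl4 was lower in 3 of 3. For the order, counts under 3 UMIs were taken as 3. The widest downward were Trac, Cd8b1, Hist1h2ap, Rrm2, Ly6e, Cd8a, Gtf2h4, Trdc, Hist1h1b and Mcm3. Trac, the alpha chain constant gene, had 154 UMIs in CD3-positive and 0 in CD3-negative male cells. Taken against 3 UMIs over the 3 mice, it was at least 21.7-fold lower in CD3-negative cells. Cd8b1 had 143 UMIs against 1, Ly6e 129 against 5, Cd8a 77 against 0 and Trdc 325 against 16. These 5 genes were lower in 3 of 3 female mice too, and the other 5 were lower in at most 1 of 3. Hist1h2ap, Rrm2, Hist1h1b and Mcm3 are genes of DNA replication and its histones. In CD3-positive cells they stood at 203 CPM, 194 CPM, 125 CPM and 121 CPM, or 96.6 CPM, 91.7 CPM, 65.2 CPM and 60.3 CPM without 2 cells of over 20000 UMIs. Gtf2h4 was at 132 CPM, Ly6e at 269 CPM and Cd8a at 161 CPM, or at 28.4 CPM, 139 CPM and 92.9 CPM without cells that had a UMI of Dntt, Rag1 or Rag2. The subsets were made from these counts, so the ratios are descriptions.

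**Figure D4:**
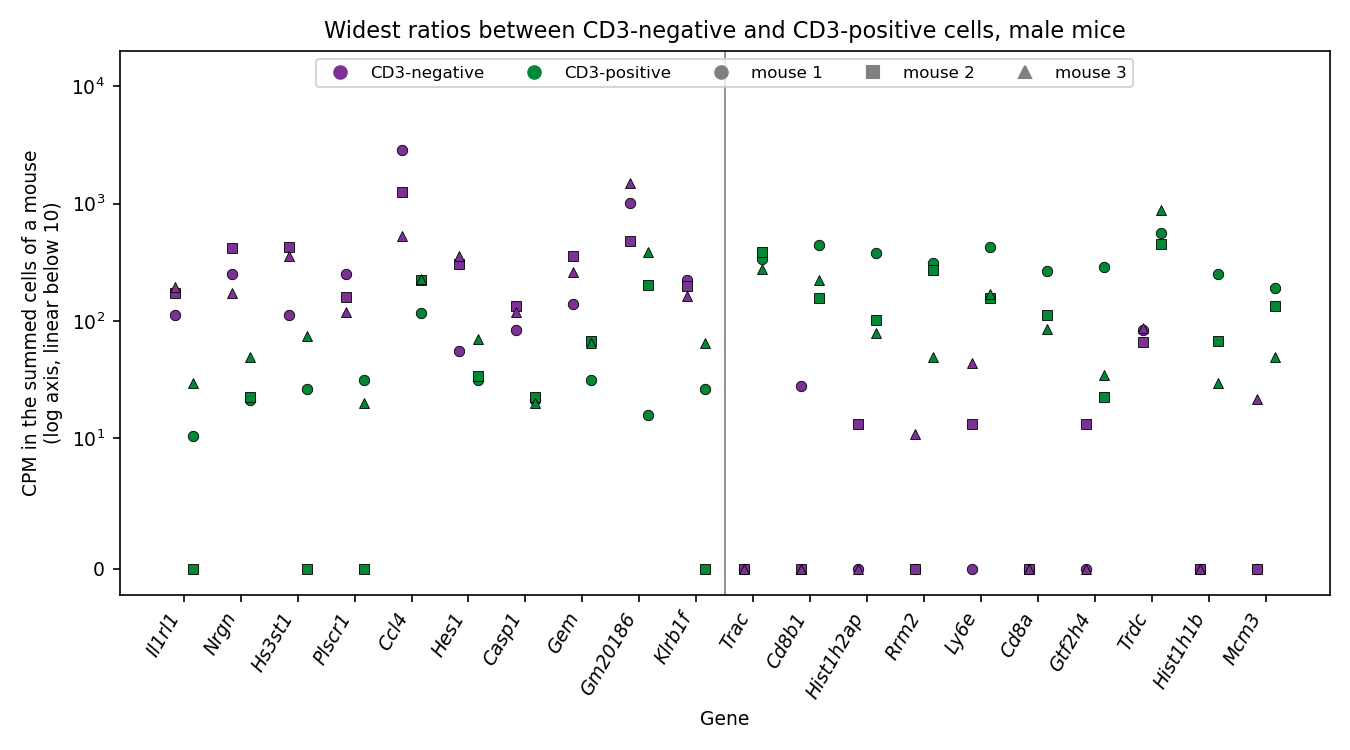
CPM in CD3-negative (purple) and CD3-positive (green) cells of the 3 male mice for the 10 genes with the widest ratio in each direction, on a log axis that is linear below 10. The cells were parted by their own counts, so the separation is not a test. The 3 CD3-negative points of Il1rl1 and Ccl4 lie above the CD3-positive ones, and Trac lies at 0 in CD3-negative cells of all 3 mice.

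List members were counted among the same 3209 genes, with at least 30 UMIs and outside the gate, beside the shares of 17.2% higher and 18.2% lower. Of 10 such NK receptor genes 5 were higher in CD3-negative cells in 3 of 3 male mice and 0 were lower. In female mice Klrb1f of these was higher in 3 of 3, Klrk1 and Klrc1 in 2, and Klrd1 and Klri2 in 1. Of 11 cytokine and chemokine ligand genes 6 were higher and 0 lower, and of 12 cytokine receptor genes 6 were higher and 1 lower. Ccl5 was the most abundant ligand (3949 CPM in CD3-negative and 1823 CPM in CD3-positive cells) and Ifngr1 the most abundant of the receptors. Of 15 genes of CD3 and T cell receptor signalling 2 were higher and 8 lower. A cell without CD3 UMIs could enter the gate only by Ncr1, Klrb1c, Trbc1 or Trbc2. Of the 43 male CD3-negative cells, 25 had Ncr1 or Klrb1c. Higher NK genes and lower T cell receptor genes thus follow in part from the choice of cells, and the list counts are descriptions. Of 10 cytotoxic genes 2 were higher and 0 lower, near the share over all genes. Of 17 transcription factor genes 6 were higher and 6 lower. Id2, a transcription regulator that innate lymphocytes need, was in 95.3% of CD3-negative and in 69.5% of CD3-positive cells. Tcf7 and Lef1, factors of naive and early T cells, were in 16.3% each of CD3-negative cells and in 57.3% and 40.2% of CD3-positive cells. Of 8 tissue residency genes 4 were higher and 0 lower. Cd69, the marker that keeps lymphocytes in tissue, was in 69.8% of CD3-negative and 69.5% of CD3-positive cells. Itgae, the CD103 integrin, was in fewer than 20% of either. Of 10 genes of circulation and quiescence 1 was higher and 4 were lower. Among them, Klf2 was in 46.5% of CD3-negative and 51.2% of CD3-positive cells.

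Early genes of tissue dissociation were counted along the same split. Of 14 genes with at least 30 UMIs 9 were higher in CD3-negative cells in 3 of 3 male mice and 0 were lower, beside 17.2% and 18.2% over the 3209 genes, and Junb was at 3012 CPM, 3406 CPM and 4310 CPM against 1468 CPM, 2207 CPM and 1952 CPM. Their part in the other differences between the subsets was not tested. The list summed to 6341 CPM, 8768 CPM and 9162 CPM in gated cells of the 3 males and to 11340 CPM, 12444 CPM and 14145 CPM in the 3 females, against 20952 CPM in male macrophages. Markers of monocytes and dendritic cells summed to 2315 CPM in CD3-negative and 1029 CPM in CD3-positive male cells. H2-Aa, a class II chain, was at 223 CPM, 214 CPM and 903 CPM in CD3-negative cells of male mouse 1, 2 and 3, against 158 CPM, 158 CPM and 134 CPM. Pooled over female mice it was at 142 CPM against 172 CPM. The part of these markers in the other differences was not tested.

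CD3-positive cells, which needed a single UMI of Cd3d, Cd3e or Cd3g, were 82 of 125 male gated cells. Of these 16 had neither Trac nor Trdc and 16 had Ncr1 or Klrb1c, and Tyrobp was in 35.4% and Fcer1g in 30.5%, so they are not all shown to be T cells. CD8 cells, with Cd8a or Cd8b1 and no Cd4 UMI, were 19 of 125 (8, 3 and 8 by mouse, mean 15% ± 5.72, SD, n = 3) and 10 of 88 in female mice (mean 11.6% ± 5.10). After thinning to 1000 UMIs the CD8 means were 12.4% in male and 6.32% in female mice, with female mouse 2 at 0%. CD4 cells, with Cd4 and no Cd8a or Cd8b1, were 0 of 125, which allows a share of up to 2.4% (3 cells of 125), and 6 of 88 in female mice (1, 2 and 3 by mouse, mean 6.88% ± 3.19). No male mouse overlapped a female mouse, and the 2-sided exact permutation test over 3 against 3 mice gave p = 0.1, the smallest it allows, and 0.25 after adjustment over the 5 shares. After thinning to 1000 UMIs the female CD4 share was 0% too, so the limit concerns cells with Cd4 and no Cd8a or Cd8b1 UMI at this depth, and not cells that express Cd4. Cells with both Cd4 and Cd8a or Cd8b1 were 6 in male mice, all 6 in mouse 1, and 1 in female mouse 3.

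Trdc-positive cells were 41 of 125 in male mice, as 13 of 38, 9 of 31 and 19 of 56 cells. The mean was 32.4% ± 2.91 (SD, n = 3), against 15.8% ± 8.83 in female mice, where they were 8 of 31, 3 of 24 and 3 of 33. All male shares lay above all female shares, by a difference of means of 16.6 percentage points, with p = 0.1 in the 2-sided exact permutation test of 3 against 3 and 0.25 after adjustment over the 5 shares. As CPM in gated cells, Trdc was at 488 CPM, 275 CPM and 635 CPM in the males and at 363 CPM, 209 CPM and 34.8 CPM in the females, which do overlap. One cell of male mouse 1 held 33 of its UMIs of Trdc. At an equal depth of 1000 UMIs per cell the shares were 18.4%, 12.9% and 23.2% in the males and 16.1%, 8.33% and 0% in the females, with means of 18.2% and 8.15%. Female mouse 1 then lay above male mouse 2, so the sexes overlapped. The Trdc-positive cells included CD3-negative ones, 9 of 41 in male and 6 of 14 in female mice, with 5 in female mouse 1. Cells with both Trdc and CD3 were 28.9%, 19.4% and 26.8% of gated cells in the males and 9.68%, 12.5% and 6.06% in the females. The difference between the sexes in that share was not tested.

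Among CD3-positive male cells 34 had Trac without Trdc, 28 had Trdc without Trac, 4 had both and 16 had neither. In female mice the counts were 35, 7, 1 and 10. Of the 32 male cells with CD3 and Trdc, 28 had neither Cd4 nor Cd8a or Cd8b1, and 12 had Ncr1 or Klrb1c. They carried Tcrg-C1 in 50% and Tcrg-C4 in 31.2%, Trgv2 in 37.5% and Cd163l1, a scavenger receptor of gamma delta T cells, in 28.1%. In CD8 cells Trgv2, Cd163l1 and Tcrg-C1 were in 0%. Ccr2 was in 71.9% of the Trdc cells and 15.8% of CD8 cells, and Il18r1, the IL-18 receptor, in 56.2% and 15.8%. Tcf7 was in 50% and 89.5%. Cd5 was in 3.12% and 31.6%. Ikzf2 and Maf, transcription factors, were in 56.2% and 53.1% of the Trdc cells and in 15.8% and 5.26% of CD8 cells. These groups were set by the same counts and were not tested.

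Genes of some lymphocyte classes were at 0. Il17a and Il22, the cytokines of type 3 lymphocytes, had 0 UMIs in all gated male cells, as did Il10, Il5 and Il13, and Foxp3, the factor of regulatory T cells. Trav11, the segment of invariant NKT cells, and Havcr2 had 0 UMIs as well. The type 3 list summed to at most 48.8 CPM in a male mouse. Markers of other classes were also counted in gated male cells. Those of monocytes and dendritic cells had the largest sums of these lists, at 888 CPM, 1271 CPM and 1893 CPM in the 3 males, against 7147 CPM in B cells and 42153 CPM in macrophages. Cd74 was their most abundant gene, and Xcr1 and Flt3 were at 0. Macrophage markers summed to 644 CPM, 819 CPM and 813 CPM in the 3 males, against 58095 CPM in macrophages and 874 CPM in B cells, and Apoe was their most abundant gene. Neutrophil markers summed to 719 CPM, 984 CPM and 1209 CPM, against 352048 CPM in neutrophils. B cell markers summed to 138 CPM, 79.4 CPM and 81.99 CPM. Basophil and mast cell markers summed to 0, 24.4 CPM and 10.2 CPM in the males and to 39.6 CPM, 1897 CPM and 62.6 CPM in the females. In female mouse 2, Cpa3 gave 197 UMIs in 1 cell.

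Male mouse 1 stood apart in a set of gated cells. Of its 38 gated cells 11 had a UMI of Dntt, Rag1 or Rag2, genes of receptor rearrangement in developing lymphocytes, against 0 of 31 and 0 of 56 in the other males and 1 of 88 in the females. These included all 6 cells with both Cd4 and Cd8, 4 of the 8 CD8 cells of that mouse, and 10 of its 14 cells with Ccr9, a receptor of thymus and gut homing. Ptcra, the pre-T cell receptor gene, had 0 UMIs. B cells with a Dntt, Rag1 or Rag2 UMI occurred in every mouse, as 10 of 45, 7 of 41 and 14 of 74 in the males. Without these cells the gated share of the males was 4.57% and the CD8 share 12.9%. The 2 gated cells with over 20000 UMIs were also in male mouse 1, with 33902 and 30809 UMIs, together 28.7% of its gated UMIs. Each held 17 UMIs of Dntt and is among the 11 cells, so leaving out either set is not an independent check.

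Male against female was the comparison that the gate did not use. UMIs of gated cells were summed per mouse (225188, 163668 and 292722 in the males and 151586, 110171 and 143801 in the females) and compared by the quasi-likelihood test of edgeR. CPM in this comparison are per 1000000 UMIs of the genes tested, scaled by the factors of the trimmed mean of M values (TMM), and so lie above the CPM given before. Of 2365 genes tested, 8 passed an adjusted p of 0.05, or 0.338%, of which 4 (0.169%) were higher in male and 4 (0.169%) in female mice, and 224 had an unadjusted p under 0.05. Xist, the X inactivation RNA, was at 0 in every male and at 936 CPM, 1079 CPM and 922 CPM in the females (adjusted p = 2.32e-07 in edgeR). Eif2s3y, a Y-linked gene, was at 119 CPM, 152 CPM and 76.9 CPM in the males and at 0, 10.9 CPM and 0 in the females (edgeR adjusted p = 0.0151). Its female level came from 1 UMI in female mouse 2, and its call was lost without female mouse 1 or 3 (edgeR adjusted p 0.109 at most). Both genes match the hashtags. Ddx3y had 13, 23 and 14 UMIs in the males and 0, 0 and 1 in the females, and Kdm5d and Uty had at most 3 and 4 UMIs in any mouse.

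Of the other 6 genes, 3 were higher in male mice. Pclaf, a PCNA partner in replication, was at 543 CPM, 277 CPM and 219 CPM in the males and at 0 UMIs in the 3 females. Its adjusted p in edgeR was 8.52e-04. Stmn1, a tubulin regulator of dividing cells, was at 1096 CPM, 277 CPM and 320 CPM against 107 CPM, 32.7 CPM and 49.4 CPM (log2 3.1, SE 0.577, edgeR adjusted p = 0.033). The size rested on male mouse 1, where the 2 cells of over 20000 UMIs held 60 and 87 of its 212 UMIs of Stmn1. The log2 difference was 2.42 without these 2 cells, 2.19 without male mouse 1 and 3.72 without female mouse 1. Hmgb2, a chromatin protein, was at 2434 CPM, 1203 CPM and 1769 CPM against 829 CPM, 611 CPM and 799 CPM (log2 1.27, SE 0.243, edgeR adjusted p = 0.0381). All males lay above all females for these 3 genes. Pclaf kept its call in all 12 alternatives that gave it an adjusted p, which the test of DESeq2 did not. It passed the filter on low counts by its male counts alone, and the alternatives drew on the same female counts of 0. Stmn1 and Hmgb2 lost theirs without any 1 female mouse, and Hmgb2 also without male mouse 3 (largest edgeR adjusted p 0.224 for both).

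The remaining 3 were higher in female mice. Furin, a protease that processes precursor proteins, was at 77.5 CPM, 111 CPM and 125 CPM in the males and at 410 CPM, 458 CPM and 461 CPM in the females (log2 -2.06, SE 0.252, edgeR adjusted p = 8.52e-04). Fosb, an AP-1 factor of the early response, was at 82.7 CPM, 207 CPM and 150 CPM against 493 CPM, 403 CPM and 584 CPM (log2 -1.78, SE 0.297, edgeR adjusted p = 0.0155). Klf4, a zinc finger factor, was at 93.0 CPM, 89.9 CPM and 85.0 CPM against 312 CPM, 294 CPM and 206 CPM (log2 -1.59, SE 0.277, edgeR adjusted p = 0.0207). All females lay above all males. Furin kept its call in all 13 alternatives, of which that without Scrublet doublets left out 0 gated cells and repeated the main test. Fosb lost its call in 3 of 13, with a gate of at least 4 UMIs and without female mouse 1 or 3 (largest edgeR adjusted p 0.124). Klf4 lost its call in 5 of 12, with that gate and without male mouse 2 or 3 or female mouse 1 or 2 (largest edgeR adjusted p 0.261).

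**Figure D5:**
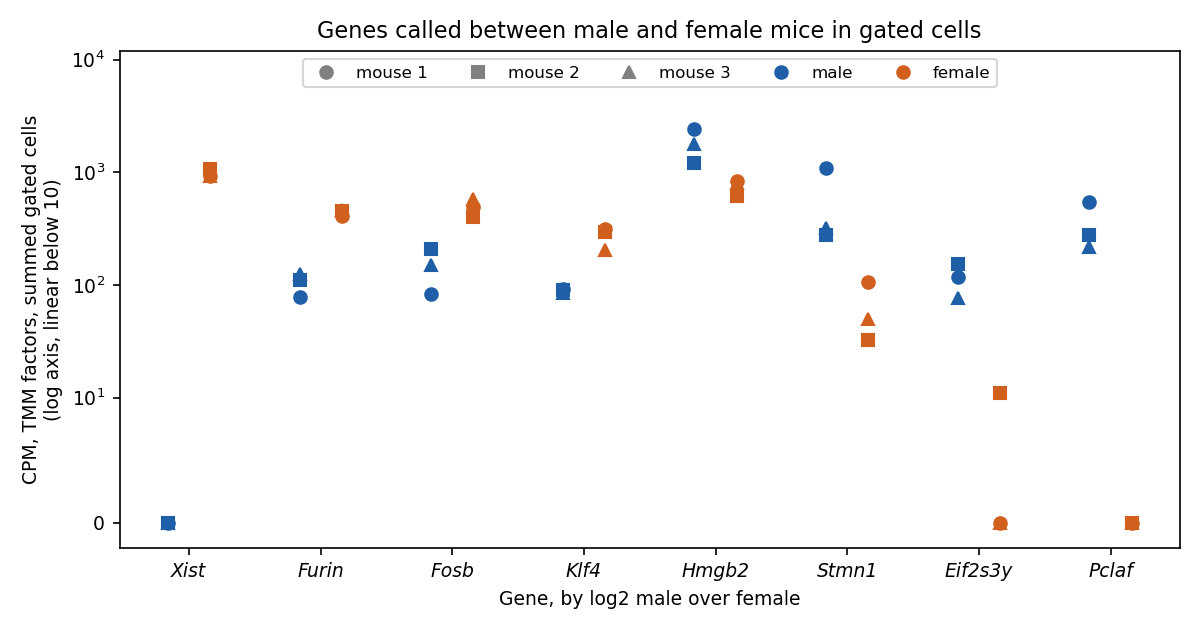
CPM with TMM factors of the 8 genes that passed the test, in summed gated cells of each of 3 male (blue) and 3 female (orange) mice, on a log axis that is linear below 10. Xist and Pclaf are at 0 in one sex, and in none of the 8 genes do the sexes overlap.

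Among the lists, the genes called were ones already named. Of 13 tested genes of tissue dissociation 1 passed (Fosb), beside 0.338% of all 2365 genes tested (0.169% higher in female mice). Of these 13 genes 13 lay below 0, with a median log2 ratio (male over female) of -0.75 against 0.00 over all genes tested. Of 13 listed cell cycle genes 5 were tested, and the rest fell below the filter on low counts. Of the 5, 2 passed, Stmn1 and Hmgb2, beside 0.338% of all genes tested (0.169% higher in male mice). The median was 1.25, over genes that could pass the filter by their male counts alone. Stmn1 had 212, 40 and 79 UMIs in the males and 13, 3 and 6 in the females. As CPM over all UMIs of gated cells, the 13 genes summed to 6999, 2890 and 3898 in the males and 1656, 1280 and 1606 in the females. Of 19 tested genes of CD3 and T cell receptor signalling, 8 NK receptors, 9 cytotoxic genes, 11 ligands and 10 cytokine receptors 0 passed. Beside 0.338% over all genes tested, 0 calls in lists this short do not set them apart. Csf2 had a log2 ratio of -2.11 (SE 0.599) and an edgeR adjusted p of 0.184, with 0, 214 CPM and 295 CPM in the males and 525 CPM, 709 CPM and 1004 CPM in the females. Il1rl1 had -1.34 (SE 0.390, edgeR adjusted p = 0.184) and Trdc 1.15 (SE 0.490, edgeR adjusted p = 0.467). The mix of subsets in a sum differs between mice, so more of a subset and more RNA per cell cannot be told apart in these values.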

How the data were processed

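The authors deposited raw UMI counts of 1 lane as 2 matrices. One holds 4395 barcodes and 31053 genes with 6 hashtags, and the other 2668 cells and 16819 genes, filtered with Seurat. Cell Ranger 3.1.0 is named in the larger matrix and mm10 in the submitters' notes. HTODemux (Seurat 5.3.0, R 4.3.3) was run on all barcodes, then cells with over 200 and under 5000 genes and under 5% mitochondrial UMIs were kept. This gave 2668 male cells, the deposited ones, and 1073 female cells, with 269 hashtag doublets and 101 negatives left out. The gate gave the same 125 male cells in both matrices. Each hashtag was taken as a mouse. Cells held 23405172 male and 7965133 female UMIs.

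CPM are UMIs per 1000000 UMIs of the summed cells, except in the male against female test, where they are per 1000000 UMIs of the genes tested with TMM factors. Male and female sums were compared with edgeR 4.0.16 (TMM, filterByExpr, Benjamini-Hochberg), and DESeq2 1.42.0 served as an alternative. Tested on simulated data of 2178 genes for male against female, edgeR called 50.5% of the genes given a log2 difference of 1 and 100% of those given 2, and made 3 false calls. Intervals cover counting error only. Doublets across mice were removed by hashtags. Scrublet marked 11 of 3741 cells (0.294%) and 0 gated cells, so doublets within a mouse were not removed.

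The cells, lists and subsets were chosen with earlier results of these data known. Named genes were the markers, genes of the gate, list members in at least 20% of cells, the 10 widest ratios in each direction, and genes past the sex test. Positions are GENCODE M21, matched by Ensembl identifier. Reads of BALB/c mice were counted on mm10, so levels of the Klra family, where strains differ, are uncertain. Of 11 Klra genes in the matrix 4 had 0 UMIs in gated male cells.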

Additional observations from a re-analysis of the deposited data

Results flagged for a closer look

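In 4 listed genes the log2 ratio of CD3-negative over CD3-positive cells had one sign in all 3 male mice and the opposite sign in all 3 female mice. These are 4 of 167 listed genes with at least 30 UMIs (2.40%), beside 112 of 3209 (3.49%) over all such genes, so the lists hold no more of them than the rest. Ccl4, a chemokine, had 2.71 in the males and -0.68 in the females. Rhob, a small GTPase of the early response, had 1.32 and -1.68, and Ifngr1, the interferon gamma receptor, had 0.32 and -0.47. Ly6c2, a surface antigen of activated lymphocytes and monocytes, had -1.64 and 0.45. The difference between the sexes was not tested for any of them.

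Among 370 barcodes that passed the filters on genes and mitochondrial UMIs but had no single hashtag, 11 met the gate. That is 2.97% (exact Clopper-Pearson 95% interval 1.49 to 5.26%), and these barcodes entered no comparison.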

How the results depend on the processing

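The alternatives were a sum of at least 2 or 4 UMIs, C1q under 1%, Scrublet, each mouse left out, and for genes other tests and filters. Leaving out cells over 20000 UMIs or with a Dntt, Rag1 or Rag2 UMI was added after seeing the data. The male gated share was 5.11% to 5.44% over the limits on UMIs and C1q, and 3.99% to 5.96% with each male left out. The Trdc-positive share of male mice was 18.2% after thinning to 1000 UMIs against 32.4%, by construction with fewer UMIs. The CD3-negative difference between the sexes (male minus female) was -3.26 percentage points, and it ran from -11.3 without male mouse 2 to 3.98 without male mouse 1, and was 1.59 without female mouse 3. The cause was not tested. The count of genes called between the sexes was 8, and 111 without the filter on low counts, 5 with at least 4 UMIs and 12 with DESeq2, of which 5 were among the 8 (it gave no adjusted p for Pclaf, Klf4 and Eif2s3y). Leaving out a mouse gave 4 to 14, with 14 without male mouse 2, 4 without female mouse 1, 5 without female mouse 2 and 4 without female mouse 3. Xist and Furin passed in all 13 alternatives (edgeR adjusted p 8.96e-06 and 0.011 at most) and Pclaf in the 12 that gave it an adjusted p. The alternative without Scrublet doublets left out 0 gated cells, so it repeated the main gene test and could change no call. The calls of Stmn1, Hmgb2, Fosb and Klf4 were lost in the alternatives named beside them. Eif2s3y was lost without female mouse 1 or 3 and fell below the filter on low counts with at least 4 UMIs and without male mouse 1 or 2. Without cells over 20000 UMIs 8 of the 8 genes passed, and without cells with a Dntt, Rag1 or Rag2 UMI 7 did, while Eif2s3y was below the filter on low counts. No paired analysis was possible because the mouse numbers follow hashtag order within each sex and tie no male mouse to a female one.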
